A study of Mus musculus with 6 samples.

Results

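Genes of cholesterol efflux and of the liver X receptors (LXRs) were followed in bone marrow-derived macrophages (BMMs) cultured with or without cartilage fragments. The members were taken by symbol, namely Apoe, Apoc1, Apoc2, Abca1, Abcg1, Nr1h2, Nr1h3, Mylip, Lpl and Pltp. All 10 had rows in the deposited files, of 24394 gene symbols in all. The study asked how macrophages respond at the level of transcription to fragments of cartilage, as they are found in the osteoarthritic joint. The BMMs came from C57BL/6 mice at postnatal day 28 and were differentiated for 7 days in medium with macrophage colony-stimulating factor (Mcsf, 50 ng/ml), which applied to both groups. In the stimulated group, 3 cultures received cartilage fragments of the same mice at 5 fragments per macrophage for 24 h, and the 3 control cultures received none. Neither source states whether the 3 libraries of a group came from separate animals, so a p-value here measures the spread between these libraries, which may be technical.

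Macrophages cannot break down the sterol ring, so cholesterol that they take up with lipoproteins or debris has to be stored as ester or passed out of the cell. When cholesterol accumulates, it is converted in part to oxysterols, which bind the nuclear receptors LXRα (Nr1h3) and LXRβ (Nr1h2). These receptors sit on DNA as dimers with a retinoid X receptor and raise transcription of the transporters Abca1 and Abcg1, of the apolipoprotein cluster with Apoe, Apoc1 and Apoc2, of the lipoprotein-modifying proteins Lpl and Pltp, and of Mylip, a ubiquitin ligase that lowers lipoprotein receptors.

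The values are fragments scaled to transcript length and library depth (FPKM) as given by Cufflinks, summed over the transcripts of a symbol. Transcripts that Cufflinks assembled in 1 library carry no symbol in these files, and they were counted with the gene whose locus they share. The libraries rest on 699237 to 776371 fragments each, as estimated from the deposited coverage, and the 2 groups overlapped in depth. The methods state far more reads per sample than this, which was not resolved here, and the counting errors and limits below hold for the estimate. Between libraries, the chi-square of fragments per gene, without the 1% of genes that differed most, was 1.08 to 1.14 within a group. It was 1.54 to 1.57 between controls and stimulated replicates 1 and 2, and 1.41 to 1.44 between controls and stimulated replicate 3, which was the stimulated library nearest to the controls. With all genes it was 1.87 to 3.56 between the groups and 1.32 to 2.65 within them, and did not separate the groups. Of the 8 macrophage markers all were detected in the libraries, with summed levels of 39473 to 60573 FPKM in controls and 40805 to 54714 FPKM in stimulated cultures. Nearly all of this was Lyz2, with 36738 to 57950 FPKM over the 6 libraries. Adgre1, Itgam and Cd14 were higher in every stimulated library (9.03% of all genes). Adgre1 and Cd14 had an adjusted p from limma under 0.05 (0.394% of all genes). The other macrophage markers overlapped, with log2 fold changes of -0.11 (Lyz2), -0.12 (Mrc1), 0.01 (Csf1r), 0.11 (Cd68) and 0.56 (Fcgr1). Of 9 chondrocyte markers 4 were at 0 in all libraries, and the summed level was 1.54 to 4.22 FPKM in controls and 1.18 to 2.82 FPKM in stimulated cultures. All 5 adipocyte markers and all 5 lymphocyte markers were at 0, and neutrophil markers overlapped between the groups (808 to 948 FPKM and 755 to 1098 FPKM). Dendritic cell markers also overlapped, at 72.7 to 90.2 FPKM and 67.7 to 80.1 FPKM, nearly all of it Itgax. The methods give male mice, whereas Xist lay between 19.8 and 23.6 FPKM in all 6 libraries and the Y-linked Ddx3y, Eif2s3y, Kdm5d and Uty were at 0.

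The sequence upstream of Abca1 is shown because it holds a partial match to the type of element that LXRs bind. That element is a direct repeat of AGGTCA with 4 bases between the copies (DR4). The sequence upstream of Apoe is shown as that of the member with the highest level. Both are the 250 bases before the start of the gene in RefSeq (GRCm38.p6), read 5′ to 3′ on the strand of the gene. In capitals are, for Abca1, an E-box (CACGTG) from base -147, the best match to the repeat and a TATA box (TATAAA) from base -29, counted back from the start. The window of Apoe holds none of these and has no capitals.

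Abca1, chr4:53159896-53160145, minus strand: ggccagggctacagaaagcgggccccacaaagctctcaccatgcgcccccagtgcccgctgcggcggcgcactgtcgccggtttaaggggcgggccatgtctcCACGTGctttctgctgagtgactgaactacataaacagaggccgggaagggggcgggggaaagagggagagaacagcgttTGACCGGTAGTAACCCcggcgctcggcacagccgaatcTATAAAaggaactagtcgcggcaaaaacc

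Apoe, chr7:19699189-19699438, minus strand: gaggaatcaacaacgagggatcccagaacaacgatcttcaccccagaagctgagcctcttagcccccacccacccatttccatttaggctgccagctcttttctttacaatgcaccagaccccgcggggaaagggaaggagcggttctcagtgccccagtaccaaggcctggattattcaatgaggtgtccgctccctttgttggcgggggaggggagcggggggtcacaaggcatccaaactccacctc

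The match upstream of Abca1 lies from -67 to -52 and reads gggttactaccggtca on the other strand, which equals the repeat in 9 of its 12 fixed letters. Of 32851 such windows in the reference, both strands searched, 18.5% held a match of at least 9 letters, so the letters alone do not set Abca1 apart. The reference held 10 windows for 7 of the members, and Abca1 was the only one of these with such a match. CACGTG was found in 6.02% of all windows and, among the members, in that of Abca1. TATAAA was found in 7.59% of all windows and, among the members, in those of Abca1 and Mylip and in 1 of 3 windows of Apoe. The single half-site AGGTCA, present in 14.02% of all windows on either strand, was found among the members in the window of Apoc2. These are matches of letters, and no binding was measured. Elements farther away, such as the enhancers downstream of Apoe and within Abcg1 through which LXRs are known to act, lie outside these windows. Windows for Abcg1, Lpl and Apoc1 were not analysed here.

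None of the 10 members passed the threshold of an adjusted p of 0.05 in limma on log2(FPKM + 0.1), with Benjamini-Hochberg adjustment over the 10398 genes whose mean was 1 FPKM or more. Over all these genes 0.394% passed, 33 of them higher and 8 lower. At an unadjusted p under 0.05 there were 2 members (Apoe and Abcg1), against 9.33% of all genes. Both were lower in each stimulated library than in each control library, which was so for 6.88% of all genes. Abca1 was higher in each stimulated library, which was so for 9.03% of all genes, and the groups overlapped for the other 7 members. This depends on the scale for Abca1 and Mylip. As shares of the FPKM of a library Abca1 overlapped and Mylip was lower without overlap. On scaled fragments Mylip was lower and Abca1 higher without overlap, and Apoe and Abcg1 stayed lower. How many of all genes did not overlap on these scales was not counted, so no background stands beside them. All 10 members passed the filter on low values. The median log2 fold change of the members was -0.0095, and that of all genes tested was 0.0030. Apoc1 rests on too few fragments for a fold change to be read. The study used another test, Cuffdiff, and listed Apoe and Abcg1 among its lower genes at a corrected p under 0.05. Cholesterol binding and cholesterol efflux were among the terms that it reported as enriched in its lower genes, with those data not shown. It listed no other member, so for Apoe and Abcg1 the call differs between that test and the fit used here.

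**Figure D1:**
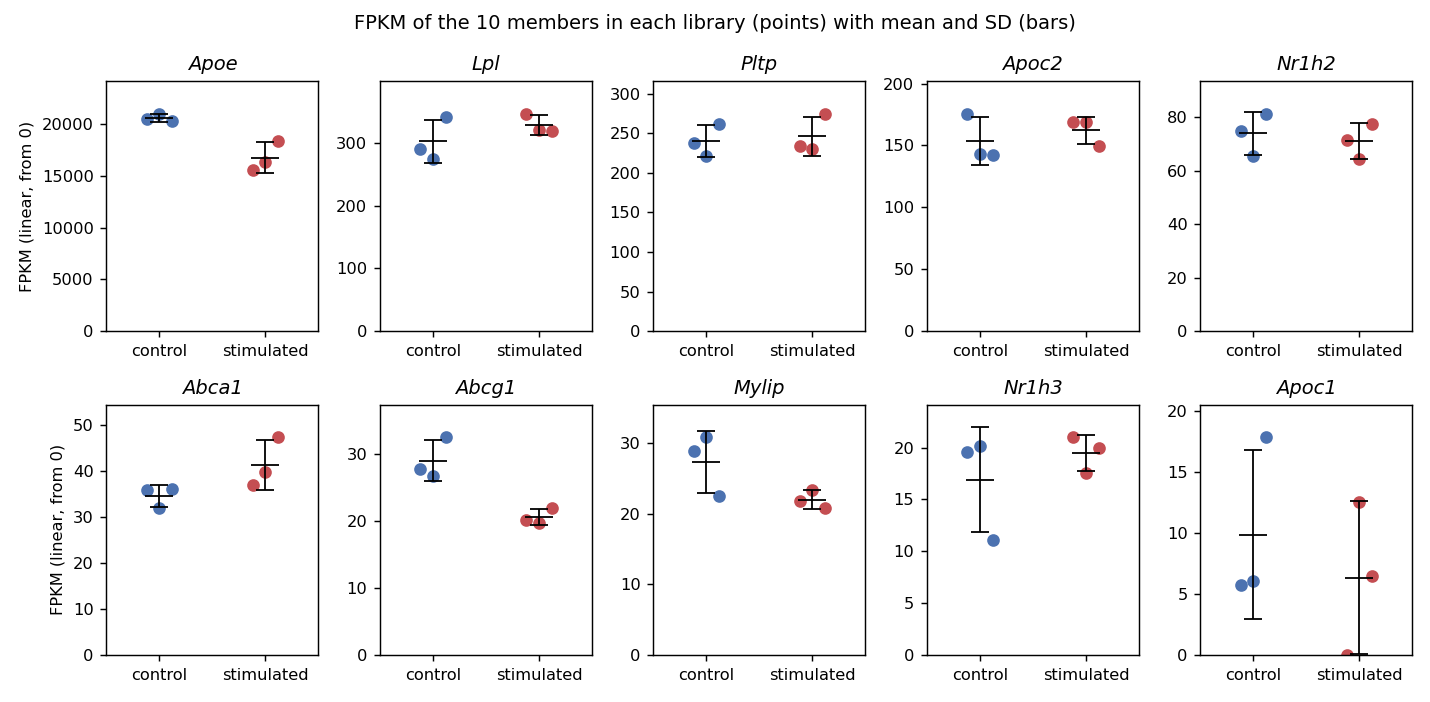
FPKM of the 10 members on linear axes from 0, with 1 point per library (3 control in blue, 3 stimulated in red) and the mean ± SD as bars; the panels are ordered by level. Apoe and Abcg1 lay lower in all stimulated libraries, Abca1 lay higher, and the points of the other 7 members overlapped.

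Apoe encodes apolipoprotein E, which macrophages secrete as an acceptor of cholesterol and as a ligand of lipoprotein receptors. Its level was 20485, 21012 and 20275 FPKM in the control libraries and 15582, 16348 and 18398 FPKM in the stimulated ones. The groups did not overlap, and stimulated replicate 3 lay closest to the controls. The means were 20591 ± 379.5 FPKM and 16776 ± 1456 FPKM (SD, n = 3 each), a difference of -18.5%. The log2 fold change was -0.30 (SE 0.055, 95% interval -0.43 to -0.17) and its adjusted p from limma was 0.0951, short of the threshold. Without stimulated replicate 3 it was -0.37 with an adjusted p from limma of 0.00637, in a fit in which 0.269% of all genes passed. With 11391 to 15146 fragments per library the counting error of Apoe was under 1% (0.816% and 0.929% per library), whereas the libraries of the stimulated group varied by 8.68%.

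Apoe held the 3rd or 4th highest FPKM of all symbols in every library. It took 3.38%, 3.44% and 3.40% of the FPKM of the control libraries and 2.49%, 2.60% and 2.95% of those of the stimulated libraries. As a share of estimated fragments these were 1.94%, 1.96% and 2.04% against 1.51%, 1.58% and 1.71%. Neither measure overlapped between the groups. The exact two-sided permutation test then has to return p = 0.1, the smallest value that 3 against 3 libraries allow, so it adds no support. The 10 members together held 3.55% ± 0.027 of the FPKM of control libraries and 2.83% ± 0.24 of those of stimulated libraries (SD, n = 3 each), and nearly all of this was Apoe.

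The transcript under which Apoe was counted differed between libraries. In 5 libraries between 80.5% and 85.1% of its FPKM lay on a transcript that Cufflinks had assembled in that library, and in control replicate 3 there was none. There, 72.4% lay on the reference transcript NM_001305844, which was at 0 elsewhere. The rest lay on NM_009696 (chr7:19696244-19699188, minus strand, mm10). The 5′ ends of the assembled transcripts were between 265 and 308 bases inside that of NM_009696, within intron 1 of the matching GENCODE transcript, and that of NM_001305844 was 567 bases inside it. NM_009696 alone had 3662, 3954 and 5606 FPKM in controls and 3033, 2863 and 2740 FPKM in stimulated cultures, so its groups did not overlap either. How Cufflinks divided the reads among these forms was not tested. If only rows that carry the symbol are summed, Apoe has 3662, 3954 and 20275 FPKM in controls and 3033, 2863 and 2740 FPKM in stimulated cultures. The log2 fold change is then -1.21 with an adjusted p from limma of 0.797, since control replicate 3 alone keeps its full level.

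**Figure D2:**
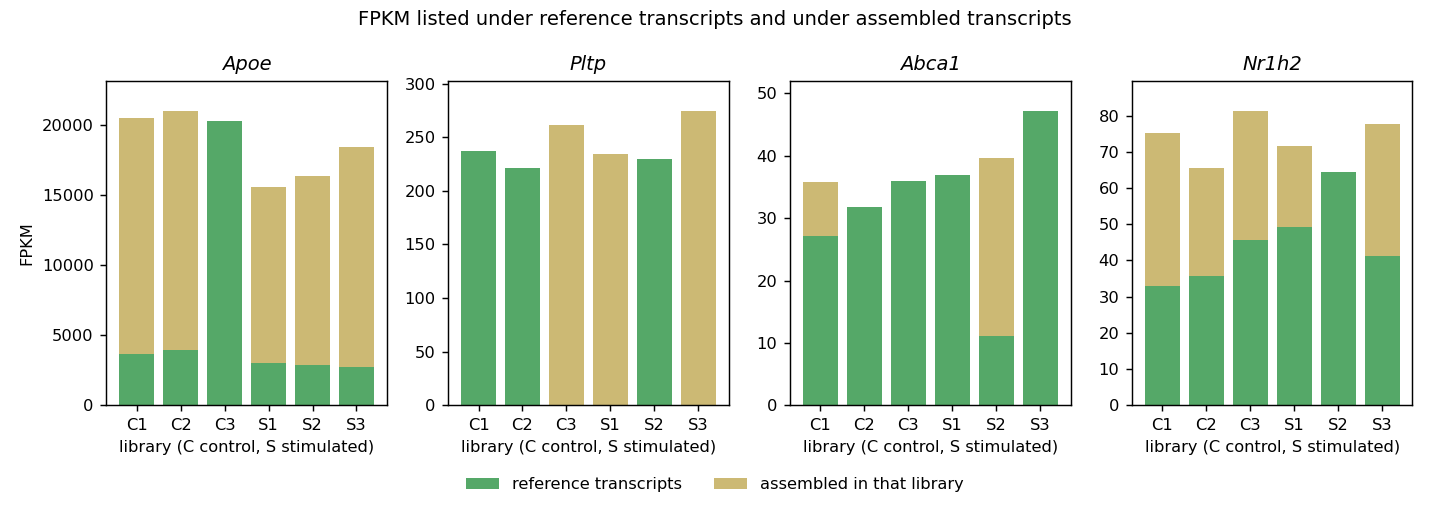
FPKM per library (C control, S stimulated; linear axes from 0) of Apoe, Pltp, Abca1 and Nr1h2, split into reference transcripts (green) and transcripts assembled in that library (yellow). The green part of Apoe is 20275 FPKM in C3 and 2740 to 3954 FPKM in the others, and that of Pltp is 0 in C3, S1 and S3.

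Apoc1 and Apoc2 lie beside Apoe on chromosome 7, within a stretch of 27610 bases and on the same strand. Apoc2, the cofactor that lipoprotein lipase needs for its activity, had 176, 143 and 142 FPKM in controls and 169, 169 and 149.6 FPKM in stimulated cultures. The groups overlapped, and the log2 fold change was 0.08 (95% interval -0.17 to 0.34). Apoc2 shares an assembled locus with another symbol in some libraries, and from 18.6% to 36.0% of its FPKM lay on assembled transcripts in 3 libraries. The ratio of Apoe to Apoc2, chosen after the values were seen, was 135 ± 16.4 in controls and 104 ± 16.5 in stimulated cultures (SD, n = 3 each; exact two-sided permutation test p = 0.2). Apoc1, a small apolipoprotein of the same cluster, was near the limit of detection. It had 1, 1 and 3 fragments in the control libraries and 0, 2 and 1 in the stimulated libraries. The ratio of its fragments was 0.628 with an exact 95% interval of 0.0975 to 3.23, which covers counting error only, and no difference was detectable at this depth.

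Abca1 and Abcg1 are the transporters that load cholesterol onto lipid-poor apolipoprotein A-I and onto mature high-density particles, respectively. Abcg1 (chr17:31057694-31117981, plus strand, mm10) had 27.8, 26.6 and 32.4 FPKM in controls and 20.1, 19.7 and 21.9 FPKM in stimulated cultures. The lowest control library lay above the highest stimulated one. The log2 fold change was -0.49 (SE 0.16, 95% interval -0.85 to -0.13), with an adjusted p from limma of 0.366. On estimated fragments scaled to the library it was likewise -0.49, with a smaller error (SE 0.12) and an adjusted p from limma of 0.0182, which made Abcg1 the only member past the threshold on that scale, where 2.71% of all genes passed. The files list a single transcript of Abcg1 and no assembled one, so its sum does not depend on how transcripts were assigned. In all, 369 control and 250 stimulated fragments stand behind it, and their ratio, adjusted for depth, was 0.709 (exact 95% interval 0.601 to 0.834 for counting error only).

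Abca1 (chr4:53030789-53159895, minus strand, mm10) had 35.8, 31.9 and 36.0 FPKM in controls and 36.9, 39.7 and 47.3 FPKM in stimulated cultures. The lowest stimulated library was just above the highest control library, and stimulated replicate 3 was the highest. The log2 fold change was 0.25 (SE 0.15, 95% interval -0.09 to 0.59), with an adjusted p from limma of 0.655. On scaled fragments it was 0.25 (95% interval 0.07 to 0.43) with an adjusted p from limma of 0.154. Summing only rows with the symbol turned the direction (log2 fold change -0.22), because 71.9% of Abca1 in stimulated replicate 2 lay on assembled transcripts.

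The ratio of Abca1 to Abcg1 within a library, chosen after the values were seen, was 1.29, 1.20 and 1.11 in controls and 1.84, 2.02 and 2.16 in stimulated cultures, on the FPKM scale. The means were 1.20 ± 0.089 and 2.01 ± 0.16 (SD, n = 3 each). As Abca1 was higher and Abcg1 lower in each stimulated library, these ratios could not overlap. An exact permutation test then returns the smallest p that 3 against 3 libraries allow, so it is no support here. Since each ratio is taken within a library, it does not depend on how the libraries were scaled to each other.

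**Figure D3:**
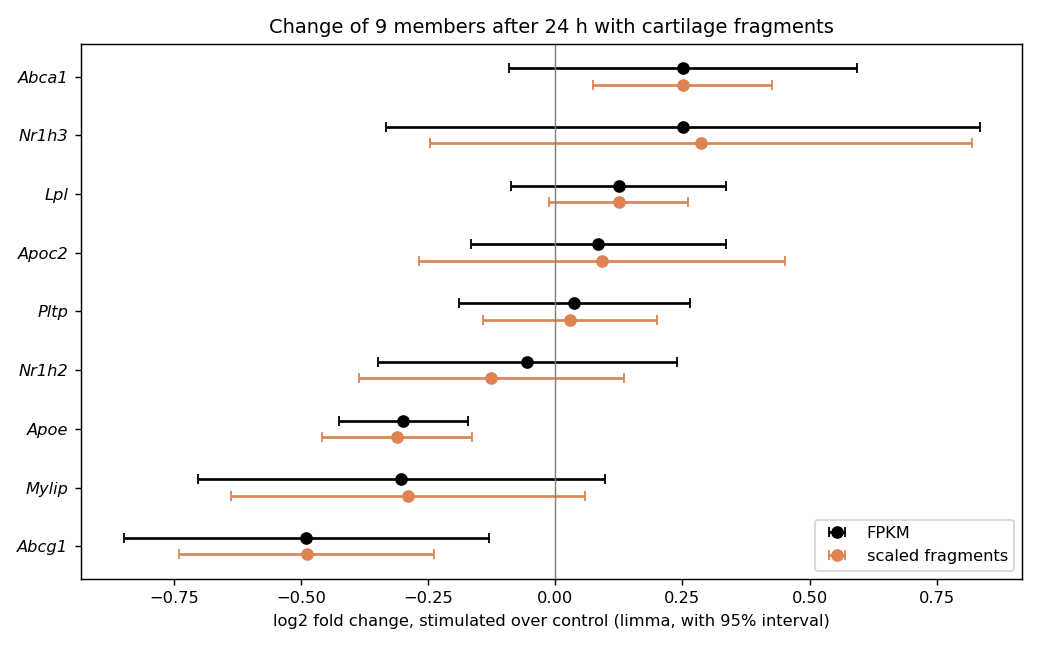
log2 fold change of stimulated over control cultures with its 95% interval for 9 members, from limma on FPKM (black) and on scaled fragments (orange); Apoc1 is left out because of its few fragments. The intervals of Abcg1 and Apoe lie below 0 on both scales, that of Abca1 lies above 0 on fragments alone, and all others include 0.

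The receptors themselves were measured at moderate levels. Nr1h2 (LXRβ) had 75.1, 65.6 and 81.4 FPKM in controls and 71.5, 64.4 and 77.5 FPKM in stimulated cultures. Nr1h3 (LXRα) had 19.5, 20.1 and 11.1 FPKM in controls and 21.0, 17.6 and 19.9 FPKM in stimulated cultures. The groups overlapped for both receptors, and Nr1h2 was above Nr1h3 in each library. The log2 fold changes were -0.06 (95% interval -0.35 to 0.24) for Nr1h2 and 0.25 (95% interval -0.33 to 0.83) for Nr1h3. The fragments of Nr1h3 numbered 13 to 26 per library, and control replicate 3, with 13, was the lowest. Without that library the log2 fold change of Nr1h3 was -0.03. The second transcript of Nr1h3, NM_013839, was above 0 in stimulated replicates 1 and 3 alone (9.29 and 9.50 FPKM), where 12 fragments were assigned to it in each.

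Lpl, lipoprotein lipase, which releases fatty acids from lipoproteins, was the second most abundant member with 291, 275 and 341 FPKM in controls and 346, 320.2 and 319 FPKM in stimulated cultures. Its groups overlapped through control replicate 3, and the log2 fold change was 0.12 (95% interval -0.09 to 0.34) with an adjusted p from limma of 0.724. Pltp, the phospholipid transfer protein, had 237, 221 and 262 FPKM in controls and 235, 230.0 and 275 FPKM in stimulated cultures. Its groups overlapped, with a log2 fold change of 0.04 (95% interval -0.19 to 0.26). The only reference transcript of Pltp, NM_011125, was at 0 in control replicate 3 and in stimulated replicates 1 and 3, where a transcript assembled at the same locus held all of its FPKM. Mylip, the ligase that marks lipoprotein receptors for degradation, had 28.9, 30.9 and 22.5 FPKM in controls and 21.8, 23.4 and 20.8 FPKM in stimulated cultures. Control replicate 3 lay within the range of the stimulated libraries. The log2 fold change of Mylip was -0.30 (95% interval -0.70 to 0.10), with an adjusted p from limma of 0.646.

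On the FPKM scale, which allows levels of genes to be compared per length, the order in controls was Apoe, Lpl, Pltp, Apoc2, Nr1h2, Abca1, Abcg1, Mylip, Nr1h3 and Apoc1. The ranges of Abca1 (31.9 to 36.0 FPKM) and Abcg1 (26.6 to 32.4 FPKM) overlapped there, as did those of Abcg1 and Mylip and those of Nr1h3 and Apoc1. In stimulated cultures Abca1 was above Abcg1 without overlap, and Abcg1, Mylip and Nr1h3 could not be ordered. For Abcg1, the spread between libraries was near the counting error, as the coefficient of variation was 10.6% in controls and 5.73% in stimulated cultures beside counting errors of 9.01% and 10.9%. For Lpl in controls it was larger, with 11.4% beside 3.37%.

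The rest of the pathway was taken from 6 lists with 55 genes, of which 38 reached the filter and were tested. None passed the threshold on FPKM by limma (0.394% of all genes), and 6 had an unadjusted p under 0.05 (9.33% of all genes). On scaled fragments 3 passed, all lower in stimulated cultures (Arl4c, Ncoa3 and Lrp1), where 2.71% of all genes passed, 182 higher and 100 lower. On FPKM 7 of the 38 were lower without overlap (6.88% of all genes) and 0 were higher (9.03% of all genes). The median log2 fold change over the 38 genes was -0.10. The study listed Arl4c and Ncoa3 among its lower genes by Cuffdiff.

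Among the further LXR targets, 11 of 15 were tested, with a median log2 fold change of 0.02. Arl4c, a small GTPase of membrane traffic, had 79.4 ± 1.61 FPKM in controls and 55.7 ± 5.67 FPKM in stimulated cultures (SD, n = 3 each). Its log2 fold change was -0.51, with an adjusted p from limma of 0.149 on FPKM and 0.000648 on scaled fragments. Lpcat3, which builds polyunsaturated phospholipids, went from 21.5 ± 1.99 to 16.2 ± 0.96 FPKM without overlap, at an adjusted p from limma of 0.508. The lipogenic targets overlapped between the groups, and their log2 fold changes were 0.02 for Srebf1, the master regulator of fatty acid synthesis, 0.13 for Fasn, 0.16 for Acaca, 0.30 for Scd2, 0.20 for Acsl3 and -0.24 for the elongase Elovl5. Mertk, a receptor for dying cells, and Cd5l, a secreted macrophage protein, also overlapped (log2 fold changes 0.13 and -0.20). Scd1 was below the filter with 13 control and 7 stimulated fragments, and Abcg5, Abcg8 and Apoc4 were at 0 in all libraries.

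Of the 12 partners and cofactors of the receptors, 10 were tested with a median log2 fold change of -0.18. The coactivator Ncoa3 had 28.3 ± 0.23 FPKM in controls and 20.4 ± 0.85 FPKM in stimulated cultures (SD, n = 3 each), without overlap. Its log2 fold change was -0.47, with an adjusted p from limma of 0.318 on FPKM and 0.0066 on scaled fragments. Ppard, a nuclear receptor for fatty acids, was also without overlap (15.8 ± 0.60 and 12.6 ± 2.62 FPKM, adjusted p from limma 0.666). The dimer partners Rxra and Rxrb overlapped between the groups, with log2 fold changes of -0.19 and -0.17, and Rxrg was at 0. The corepressor Ncor1 also overlapped, with a log2 fold change of -0.05. Ppara was below the filter with 1 fragment in all.

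Of 5 enzymes that make or remove LXR ligands, 2 were tested. Cyp27a1, which makes the ligand 27-hydroxycholesterol, had 44.1 ± 19.7 FPKM in controls and 25.2 ± 5.18 FPKM in stimulated cultures (SD, n = 3 each). The groups did not overlap, and the adjusted p from limma was 0.504. Hsd3b7 overlapped (log2 fold change -0.11). Ch25h, which makes 25-hydroxycholesterol, had 0 control and 2 stimulated fragments, and Cyp7b1 and Sult2b1 had 3 fragments or fewer in each group.

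Of 7 lipoprotein receptor genes 6 were tested. Lrp1, a large receptor that binds apolipoprotein E, had 237 ± 2.22 FPKM in controls and 217 ± 15.4 FPKM in stimulated cultures (SD, n = 3 each), without overlap. Its log2 fold change was -0.13, with an adjusted p from limma of 0.664 on FPKM and 0.047 on scaled fragments. The chaperone Lrpap1, with a log2 fold change of 0.30 and an adjusted p from limma of 0.525, overlapped between the groups. Scarb1 and Cd36, scavenger receptors for lipoproteins, also overlapped, with log2 fold changes of 0.02 and -0.13. Vldlr was below the filter.

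Of the 8 partners and inhibitors of lipoprotein lipase, 4 were tested and all overlapped between the groups. Lipa, the lysosomal lipase that frees cholesterol from its esters, had 846 ± 11.4 FPKM in controls and 839 ± 28.3 FPKM in stimulated cultures (SD, n = 3 each), a log2 fold change of -0.01. Lmf1 and Sel1l, with which the lipase is folded, had log2 fold changes of 0.36 and -0.10, and the inhibitor Angptl4 had -0.37 from 37 control and 28 stimulated fragments. Gpihbp1, Lipc and Lipg were at 0, and Angptl8 was not analysed here. Of the other ABCA and ABCG transporters 5 of 8 were tested. Abcg2, which exports drugs and porphyrins, had 6.22 ± 0.79 and 3.46 ± 1.41 FPKM without overlap, from 32 and 17 fragments (adjusted p from limma 0.518). Abca2, Abca3, Abca7 and Abca9 overlapped, with log2 fold changes between -0.14 and 0.30, and Abca5, Abcg3 and Abcg4 were below the filter.

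**Figure D4:**
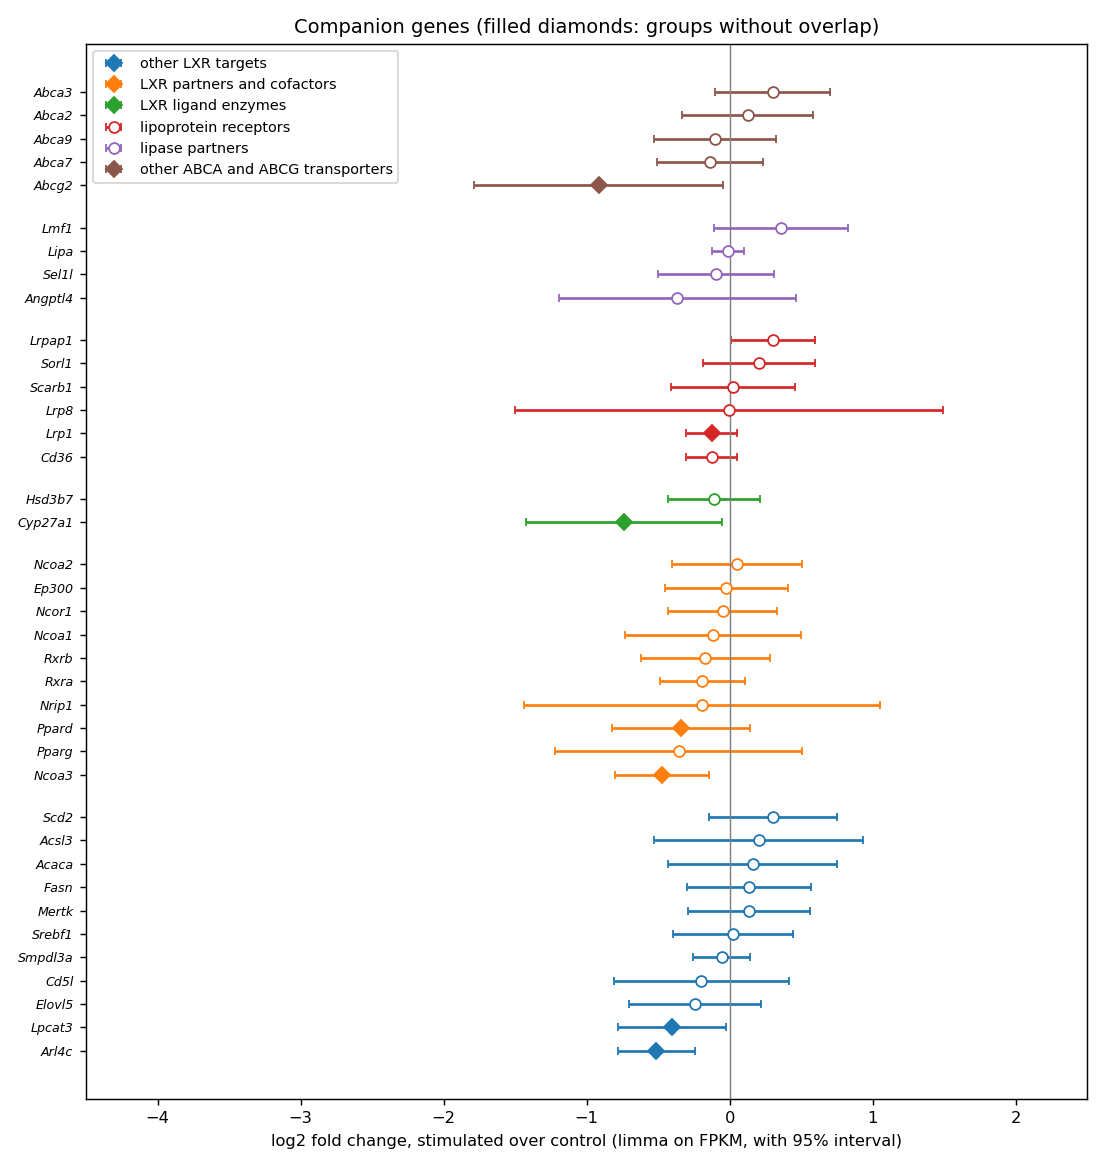
log2 fold change on FPKM with its 95% interval for the 38 tested genes of the 6 lists, grouped and coloured by list; filled diamonds are genes whose groups did not overlap. The 7 diamonds lie below 0, and none passed the threshold.

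The genes with the profile most like that of Apoe, by the distance of log2 values centred on their mean over the 6 libraries among 1523 genes with a mean of 50 FPKM or more, were Cxcr4 (distance 0.050), Man2b1 (0.11) and Plin2 (0.11). Plin2, the coat protein of lipid droplets, had 609.6 ± 4.11 FPKM in controls and 487 ± 26.8 FPKM in stimulated cultures (SD, n = 3 each). Its log2 fold change was -0.32, and limma gave an adjusted p of 0.0937. The genes most like Abcg1 were Gas6 (0.13), Tfrc (0.14) and Col1a2 (0.14), with log2 fold changes of -0.53, -0.46 and -0.41. All of these genes were lower in each stimulated library, as the measure of likeness favours. The summed level of the fibroblast or osteoblast markers was lower in each stimulated library, as were Apoe and Abcg1. Of 8 such markers 7 were detected and Bglap was at 0, their summed level was 225 to 249 FPKM in controls and 158 to 176 FPKM in stimulated cultures, and Col1a1, Col1a2 and Sparc made up nearly all of it. Dcn, of the same list, had a log2 fold change of 0.28. None of the 5 that were tested passed the threshold in limma. By Cuffdiff the study listed Col1a1 and Col1a2 among its lower genes, but not Sparc or Dcn. Man2b1, Plin2, Gas6 and Tfrc were also listed there, but not Cxcr4. The part of such cells in the values of Apoe and Abcg1 was not tested. In bulk RNA, fewer cells of a type and less RNA per cell cannot be told apart.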

How the data were processed

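RNA-seq of 3 control and 3 stimulated BMM cultures was used. The authors prepared stranded mRNA libraries, mapped read pairs (100 bp per read) to the mm10 genome and quantified each library, with TopHat, Bowtie and Cufflinks named as tools (versions not given in the sources used here). The deposited FPKM are given per transcript, reference or assembled in that library, beside the coverage and the transcript length. Assembled transcripts held 15.8% to 20.0% of the FPKM of a library. They were assigned by their locus, and those without a symbol were left out. Starts in the files count from 0, and 1 was added.

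Here FPKM were summed per symbol, 0.1 was added and log2 was taken. Genes that averaged 1 FPKM or more were fitted with limma 3.58.1 in R 4.3.3 (eBayes with trend and robust, two-sided, Benjamini-Hochberg, threshold 0.05). Fragments were estimated from the deposited coverage, FPKM and length, and 94.7% to 95.7% of values of up to 8 fragments on genes with a single transcript lay within 0.1 of a whole number. After 0.5 was added they were divided by the fragments of the library, and log2 was taken. Exact tests and intervals were computed with scipy 1.17.1, and intervals on fragments cover counting error only. The fit was also run on simulated data whose changes were larger than those of Apoe and Abcg1, so this does not bear on their detection.

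The members and the lists were chosen with earlier results of these data known. All members were named, as were list genes that passed the threshold, did not overlap or were below the filter. For Apoe and Abcg1 the 3 genes closest in profile were named, and other list genes served as examples. Alternatives changed the pseudocount, the filter, the scaling, the variance model, the sample weights, the transcripts, the unit, the replicate block and the libraries used. Leaving out joined loci was added after the data were seen. Of the listed genes, 4 are not reported here and were left out of the counts over the lists.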

Additional observations from a re-analysis of the deposited data

How the results depend on the processing

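Over 199 repeats of the 10 members under other settings, 186 kept their direction and their side of the threshold, 2 passed it and 11 changed sign. No member passed under another pseudocount, filter, scaling or variance model. From scaled fragments 182 genes were higher, 100 lower, 1 member (Abcg1) and 3 list genes passed. With each library left out in turn, higher genes numbered 12 to 26, lower genes 0 to 6, members 0 to 1 and list genes 0. The 1 member was Apoe, without stimulated replicate 3. Higher genes fell to 12 without stimulated replicate 1 and 16 without stimulated replicate 2. Lower genes were 0 without stimulated replicate 1, 3 without control replicate 3 and 4 without control replicate 1, control replicate 2 or stimulated replicate 2. Quantile normalization gave 5 lower genes, and eBayes without trend and robust gave 14 higher and 5 lower. Reference transcripts only gave 15 and 4. They turned Apoc2 to a log2 fold change of -0.0063, Abca1 to -0.22, Nr1h2 to 0.43 and Pltp to -3.72, and cut the members' share of FPKM to 1.67% in controls and 0.568% in stimulated cultures, since assembled transcripts are then missing. As a share of fragments these were 2.22% and 1.84%. Equal totals put Pltp at -0.00020. Leaving out single libraries changed the sign of Apoc1 (-3.41 to 0.080), Nr1h2 (-0.14 to 0.016), Nr1h3 (-0.029 to 0.40) and Pltp (-0.044 to 0.10). The adjusted p from limma ranged from 0.00637 to 0.797 for Apoe and from 0.0182 to 0.591 for Abcg1 over 20 alternatives each. Without joined loci Apoc2 has no value.

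The replicate numbers recur in both groups, but same-numbered libraries did not deviate together (correlations of -0.08, -0.02 and -0.11 over 5538 genes). With the replicate number as a block 17 genes were higher, 1 was lower and 0 members and 0 list genes passed.

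The estimated depth limits genes of few fragments, Apoc1 and Nr1h3 among the members.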
